A study of Homo sapiens with 4 samples.

Results

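The library of HT-1080 cells carrying a guide against ALKBH5 (sgALKBH5) was set against each of the 2 libraries with the non-targeting guide genotype sgNC (control 1 and control 2), with control 2 against control 1 as the background. These are 3 of the 4 libraries of the series. The fourth, sgPKA, carried a guide against protein kinase A and entered the choice of genes and the shared fit, and its values are given beside those of chromosome 20. Genes were chosen by level alone: of 20323 genes in the table, 11629 had a mean of at least 1 unit of TPM (transcripts scaled to a fixed total per library) over the 4 libraries. Every group was made from HT-1080, an established human fibrosarcoma line, grown in the same serum-containing medium, and polyadenylated RNA was sequenced. The labels do not say whether a guide line was 1 clone or a pool, which guide sequence or form of Cas9 was used, or whether the controls were separate cultures. The spread between the controls may therefore be technical, and sgALKBH5 has no replicate.

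ALKBH5 is a demethylase that removes N6-methyladenosine (m6A) from RNA in the nucleus, a mark placed by the METTL3 and METTL14 methyltransferase and read by YTH domain proteins. m6A affects splicing, export, decay and translation of transcripts. The series title links ALKBH5, through its phosphorylation by protein kinase A, to methylation of GPX4 transcripts. GPX4 detoxifies lipid peroxides and thereby holds back ferroptosis, a cell death that needs iron. Cells sense foreign or misplaced RNA and DNA through RIG-I-like receptors and cGAS. These sensors act through interferon regulatory factors and NF-kB on antiviral genes, chemokines and antigen presentation.

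Total expected counts were 18469299 in control 1, 18522402 in control 2 and 25937347 in sgALKBH5, so low genes were measured most deeply in sgALKBH5. VIM, the mesenchymal intermediate filament gene, was at 6730, 6840 and 7853 TPM in these 3 libraries. Of the marker lists, 2 of 12 epithelial, 5 of 14 leukocyte and 1 of 9 endothelial genes reached a mean of 1 TPM. The endothelial gene was TIE1, at 31.5, 144 and 9.56 TPM. CSF1R of the leukocyte list was at 2.65, 21.2 and 3.68 TPM, and both were highest in control 2. The leukocyte list summed to 263, 468 and 228 TPM, of which CD68, a lysosomal protein gene, held 258, 443 and 220 TPM, while the leukocyte gene PTPRC was at 0.043, 0.04 and 0.032 TPM. The epithelial gene EPCAM was at 0 in all 3, and the fibroblast genes LUM, DCN and FAP were also at 0. In bulk RNA, fewer cells of a type and less RNA per cell cannot be told apart.

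ALKBH5 was at 80.2 TPM in control 1, 67.6 TPM in control 2 and 37.5 TPM in sgALKBH5. The guide library was thus below both controls, at 46.7% of control 1 and 55.5% of control 2, and the transcript was still measured with 1608 counts. Differences here are sgALKBH5 minus a control in log2(TPM + 1), a scale that understates the differences of low genes. For ALKBH5 they were -1.08 and -0.83, while control 2 minus control 1 was -0.24. On counts, edgeR's quasi-likelihood fit gave a log2 fold change of -1.05 (standard error 0.23) against the control mean, an unadjusted p of 0.00902 and an adjusted p of 0.998. ALKBH5 (ENSG00000091542) lies on chromosome 17 from 18183828 to 18209954 in GRCh38.p14. Of 22 other measured genes within 1 Mb of it, 7 lay above both controls and 7 below both, and 0 were at least 2-fold beyond both.

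Of the other m6A genes named, FTO and METTL14 lay between the controls and METTL3 above both. FTO, the second m6A demethylase, was at 41.6 TPM in control 1, 33.0 TPM in control 2 and 41.0 TPM in sgALKBH5. METTL3 was at 70.7, 71.8 and 81.8 TPM in the same order, above both by 0.21 and 0.18. METTL14 was at 2.24, 5.26 and 2.51 TPM, with differences of 0.12 and -0.83. Of 14 genes for erasers and writers, a list that includes ALKBH5, 6 lay above both controls and 4 below both, ALKBH5 among them, with median differences of -0.01 and 0.10 from control 1 and control 2. Of 14 reader genes, 6 lay above and 3 below, with medians of 0.02 and 0.17. GPX4 was at 419, 464 and 482 TPM, so sgALKBH5 was the highest of the 3, by 0.20 over control 1 and 0.06 over control 2, and its count-based log2 fold change was 0.05 (standard error 0.23). Of 29 genes for ferroptosis defence and iron handling, 11 lay above both and 11 below both controls, and 0 were 2-fold beyond both.

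Which control was used decided how many genes stood apart. Against control 1, sgALKBH5 was at least 2-fold higher for 174 genes (1.5% of 11629) and at least 2-fold lower for 127 (1.09%). Against control 2 it was 2-fold higher for 717 genes (6.17%) and lower for 257 (2.21%). Control 2 was itself 2-fold above control 1 for 222 genes (1.91%) and below it for 523 (4.5%). The standard deviation of the difference over all genes was 0.39 against control 1, 0.668 against control 2 and 0.585 between the controls. sgALKBH5 was therefore nearer to control 1 than the controls were to each other. The share of genes 2-fold apart was smaller at higher levels, from 6.04% of genes at 1 to 5 TPM to 1.09% of those at 100 TPM or more against control 1, and from 16.9% to 4.49% against control 2. Between the controls it went from 13.7% to 3.09%.

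**Figure D1:**
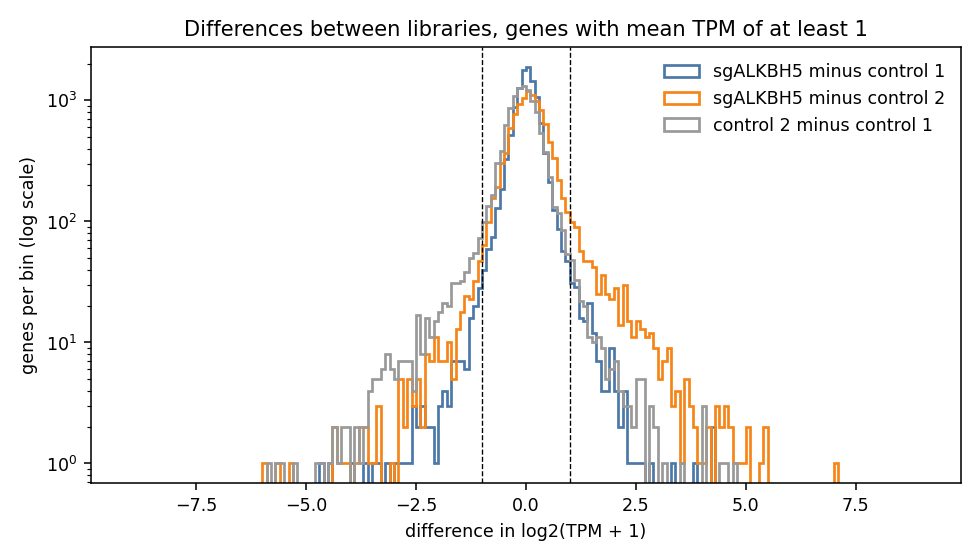
Number of genes per bin of 0.1 (log scale) by difference in log2(TPM + 1), for sgALKBH5 minus control 1, sgALKBH5 minus control 2 and control 2 minus control 1, with 2-fold marked by dashed lines. The curve against control 1 is the narrowest (SD 0.39), and the curve against control 2 has the longer right side, with 717 genes past 2-fold.

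Counting only genes beyond both controls, sgALKBH5 was at least 2-fold above both for 120 genes (1.03%) and below both for 56 (0.482%). By any amount, 39.1% of genes lay above both and 27.5% below both. At least 4-fold, 13 genes were above and 14 below. Of the 120, 96 were higher in control 1 than in control 2, and of the 56, 45 were higher in control 2, so most had control 1 on the side of sgALKBH5. Among 5878 genes whose controls were within 0.25 of each other, 24 were 2-fold above both and 19 below both.

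In the fits below, only the control group held more than 1 library. With all 4 libraries in 3 groups and 1 residual degree of freedom, edgeR's quasi-likelihood test called 0 of 13061 genes (0.0%) at an adjusted p of 0.05, with a smallest adjusted p of 0.998, and 369 genes had an unadjusted p under 0.05. DESeq2's Wald test called 40 of 12881 genes (0.311%), 15 higher and 25 lower, and limma on log2(TPM + 1) called 0 of 11629, with 338 at an unadjusted p under 0.05. The values that follow are therefore descriptions of 3 libraries. Counts of list members above or below both controls by any amount are to be read against the 39.1% and 27.5% of all genes. Counts at 2-fold are to be read against 1.03% above both and 0.482% below both. Measured members of a list are those with a mean of at least 1 TPM over the 4 libraries. A low gene can reach that mean through 1 library, so the counts describe the list and support nothing about it.

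Interferon-stimulated antiviral genes mostly lay above both controls. Of 54 antiviral effectors, 50 were measured, and of these 37 lay above both controls, 3 below both, and 10 were 2-fold above both. Their median difference was 0.34 from control 1 and 0.93 from control 2, against 0.02 and 0.08 over all genes, and control 2 minus control 1 had a median of -0.62 for the list. CMPK2, a mitochondrial nucleotide kinase gene that overlaps RSAD2, was at 6.40 TPM in control 1, 0.527 TPM in control 2 and 21.1 TPM in sgALKBH5. RSAD2, which encodes the antiviral enzyme viperin, was at 30.5, 1.89 and 89.4 TPM. Both were highest in sgALKBH5, and the control gap was wider than the step from control 1 to sgALKBH5. Whether strand was used in counting is not stated, and reads where the pair overlaps cannot be told apart. IFI44, an interferon-induced protein gene, was at 38.8, 22.7 and 117 TPM, with differences of 1.57 and 2.32. The most abundant members, IFITM3 and LGALS3BP, were at 912, 648 and 887 TPM and at 540, 675 and 591 TPM, between the controls in both cases.

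Promoter sequences are shown for 4 genes of these groups because their known response elements can be read in them. Each runs from 250 bases before to 50 bases after the annotated start, from RefSeq on GRCh38.p14, in the gene's direction. Capitals mark every match on either strand to the ISRE core GAAANNGAA, bound by interferon regulatory and STAT factors, and to the kappa-B core GGGANNTTC, bound by NF-kB. Neighbouring matches in ISG15 and in B2M overlap and form 1 run of capitals. ISG15 encodes a ubiquitin-like modifier, B2M the light chain of MHC class I, CXCL10 a T cell chemokine and NFKBIA the inhibitor of NF-kB.
ISG15: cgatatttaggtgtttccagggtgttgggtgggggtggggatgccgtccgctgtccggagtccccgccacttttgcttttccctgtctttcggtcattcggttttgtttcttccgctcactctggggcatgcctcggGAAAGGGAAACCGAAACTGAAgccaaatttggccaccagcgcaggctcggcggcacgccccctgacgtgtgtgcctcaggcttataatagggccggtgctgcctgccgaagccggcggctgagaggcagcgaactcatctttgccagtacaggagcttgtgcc
B2M: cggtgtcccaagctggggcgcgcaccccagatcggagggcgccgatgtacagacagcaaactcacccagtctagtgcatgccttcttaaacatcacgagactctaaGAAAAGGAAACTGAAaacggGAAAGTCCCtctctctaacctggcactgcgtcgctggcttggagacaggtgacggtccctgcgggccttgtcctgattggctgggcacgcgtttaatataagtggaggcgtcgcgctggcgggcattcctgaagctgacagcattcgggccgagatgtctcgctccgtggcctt
CXCL10: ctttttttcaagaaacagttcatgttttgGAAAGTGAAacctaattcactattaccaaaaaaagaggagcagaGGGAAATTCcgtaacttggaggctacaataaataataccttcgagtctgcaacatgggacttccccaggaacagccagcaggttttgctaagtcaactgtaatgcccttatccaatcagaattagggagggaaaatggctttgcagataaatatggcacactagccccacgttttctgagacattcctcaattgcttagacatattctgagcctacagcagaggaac
NFKBIA: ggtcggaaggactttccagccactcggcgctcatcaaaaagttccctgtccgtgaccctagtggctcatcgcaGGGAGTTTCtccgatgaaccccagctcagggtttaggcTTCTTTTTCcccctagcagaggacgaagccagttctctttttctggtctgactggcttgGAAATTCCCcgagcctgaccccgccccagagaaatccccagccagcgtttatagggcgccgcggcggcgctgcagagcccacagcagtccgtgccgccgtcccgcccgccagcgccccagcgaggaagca
These lie at chr1:1013247-1013546 on the plus strand, chr15:44711267-44711566 on the plus strand, chr4:76023448-76023747 on the minus strand and chr14:35404700-35404999 on the minus strand. ISG15 held 3 ISRE matches and no kappa-B match. B2M held 2 ISRE matches and, on the opposite strand, 1 kappa-B match. CXCL10 held 1 match of each motif. NFKBIA held 2 kappa-B matches, 1 of them on the opposite strand, and 1 ISRE match on the opposite strand.

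Over all promoters of measured genes in the table, 6.43% of 9387 held the ISRE core and 3.92% the kappa-B core. Of the genes 2-fold above both controls, 82 had a promoter entry, of which 16 (19.5%) held the ISRE core and 10 (12.2%) the kappa-B core. Other motifs were scored on the same promoters. The AP-1 site TGANTCA was in 6.10% of the 82, against 4.39% of all 9387. The hypoxia element ACGTG was in 14.6% against 27.3%, and the sterol element TCACNCCAC in 0.0% against 1.05%. Of 43 promoters of genes 2-fold below both, 3 held the ISRE core and 3 the kappa-B core (6.98% each). Whatever their values, 24 of 36 antiviral effector promoters (66.7%), 9 of 15 MHC class I promoters (60.0%) and 5 of 21 promoters of the NF-kB list for the kappa-B core (23.8%) held their motif. A match describes letters in this window and not binding.

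ISG15 was at 227 TPM in control 1, 183 TPM in control 2 and 680 TPM in sgALKBH5. It stood above both controls by more than they differed, with differences of 1.58 and 1.89. The list of sensors and adaptors that lie upstream of such genes was mixed, with 7 of 16 above both controls and 5 below both. DDX58, the gene for the RNA sensor RIG-I, was at 8.77, 4.95 and 20.1 TPM, and DHX58, for the related LGP2, at 6.35, 1.16 and 14.7 TPM. Both were more than 2-fold above each control. CGAS, the cytosolic DNA sensor gene, went the other way, at 4.71, 4.35 and 0.244 TPM, or 112, 124 and 7 counts. STING1, the adaptor downstream of cGAS, was at 66.3, 79.0 and 63.9 TPM, just below both. The list of interferon regulatory and STAT factors also holds the interferon receptor gene IFNGR2, which lay above both controls. Of its 19 measured genes 14 lay above both and 1 below both, with 0 at 2-fold.

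Interferon transcripts themselves were scarce. Of 9 interferon genes 6 were at 0 in all 3 libraries, and the type III gene IFNL1 alone reached a mean of 1 TPM, at 1.96, 0.99 and 2.92 TPM. IFNB1 was at 0.482, 0.229 and 0.523 TPM, highest in sgALKBH5 by less than the controls differed.

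Of 18 measured genes for antigen presentation by MHC class I, 17 lay above both controls, 0 below both and 1 at 2-fold. The median differences were 0.31 and 0.90, and control 2 minus control 1 had a median of -0.57, larger in size than the step from control 1 to sgALKBH5. B2M was at 1039 TPM in control 1, 644 TPM in control 2 and 1610 TPM in sgALKBH5. HLA-B, a class I heavy chain gene, was at 29.9, 15.6 and 73.6 TPM and was 2-fold above both, although reads of HLA genes can be shared among near-identical copies. PSME1, a proteasome activator subunit gene, was at 188, 128 and 236 TPM, with sgALKBH5 again highest. Of 9 class II genes 4 lay above both controls and 1 below both, and CTSS, the gene for the protease cathepsin S, was at 3.55, 2.12 and 9.63 TPM.

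Of 25 chemokine genes 12 were measured, and those 12 lay above both controls, 6 of them by 2-fold, with median differences of 1.13 and 2.1 and a median of -1.08 between the controls. CXCL10 was at 6.20 TPM in control 1, 1.55 TPM in control 2 and 18.9 TPM in sgALKBH5. CXCL11, another ligand of CXCR3, was at 2.81, 1.52 and 7.76 TPM. CCL2, a monocyte attractant, was at 8.11 and 21.7 TPM in control 1 and sgALKBH5, with 0 counts in control 2. For CXCL10 and CXCL11 the step from control 1 to sgALKBH5 was 1.46 and 1.20, and control 2 was lowest in all 3. CCL3L1, with near-identical copies that can split its reads, was at 1.03, 0.734 and 8.07 TPM, or 8, 6 and 86.53 counts. Its controls lay close together at a low level, and it reached the mean of 1 TPM only through sgALKBH5.

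Cytokines followed a less even pattern, with 8 of 14 measured interleukin and colony-stimulating factor genes above both and 1 below both. IL6, a cytokine of inflammation, was at 13.4 TPM in control 1, 31.1 TPM in sgALKBH5 and 0 in control 2. IL24, a cytokine of the interleukin-10 family, was the member below both, at 13.9, 333 and 5.66 TPM, with control 2 far above the other two libraries. IL23A, a subunit of interleukin-23, was at 0.781, 0.277 and 3.46 TPM.

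Genes for NF-kB subunits and feedback were above both controls for 17 of 24 measured members, with 0 below both and 4 at 2-fold. The medians were 0.30 and 0.63, with -0.40 between the controls. TNFAIP3, which encodes the ubiquitin-editing inhibitor A20, was at 19.0 TPM in control 1, 18.5 TPM in control 2 and 43.7 TPM in sgALKBH5. Its controls nearly coincided, and sgALKBH5 stood 1.16 and 1.20 above them. NFKBIA was at 47.5, 27.0 and 102 TPM, and TRAF1, an adaptor of TNF receptors, at 8.11, 5.43 and 24.5 TPM. Both were 2-fold above each control, as was the apoptosis inhibitor gene BIRC3 at 1.01, 0.44 and 3.78 TPM.

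Of 22 TNF ligand and receptor genes 8 lay above both controls and 4 below both, with 4 and 1 at 2-fold. CD40, a costimulatory receptor gene, was at 0.447 TPM in control 1, 0.161 TPM in control 2 and 3.66 TPM in sgALKBH5. TNFRSF9, which encodes the receptor 4-1BB, was at 3.32, 2.19 and 10.5 TPM. TNFSF15, a ligand gene, was lower, at 2.89, 3.70 and 0.711 TPM. Among 8 complement genes 6 lay above both controls and 0 below both. C3, the central complement component, was at 5.54, 7.13 and 18.5 TPM, with sgALKBH5 1.58 and 1.26 above the controls. CFB, which forms the alternative pathway convertase with C3, was at 1.48, 0.31 and 7.25 TPM.

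**Figure D2:**
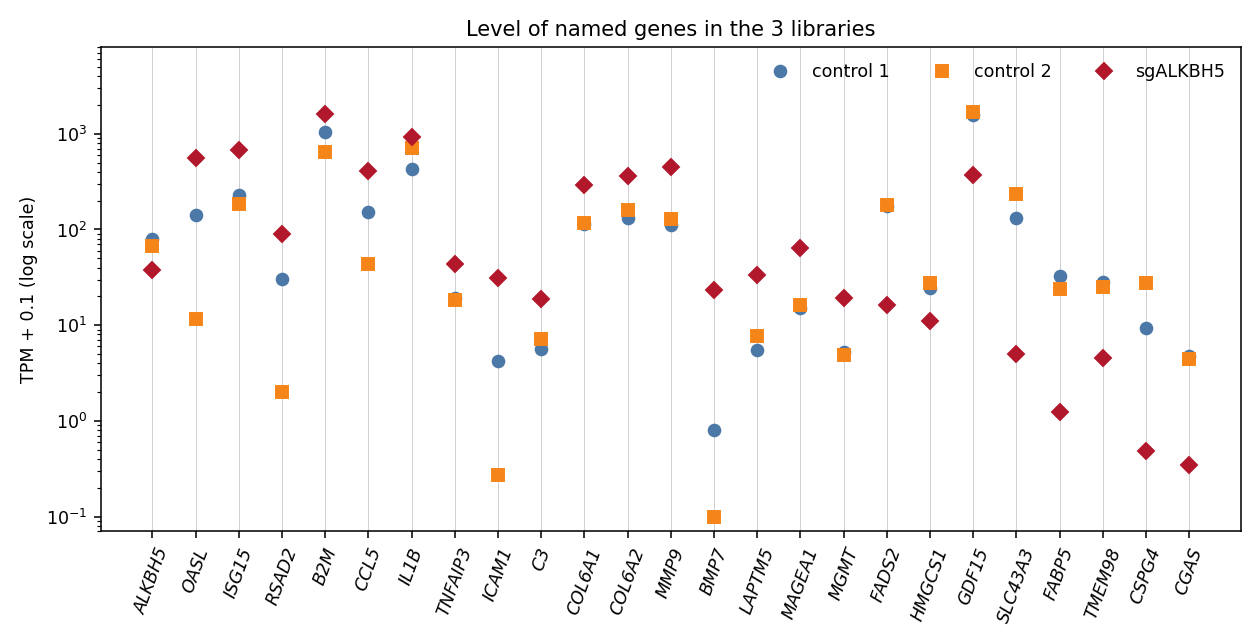
TPM plus 0.1 (log scale) of 25 named genes in control 1 (circles), control 2 (squares) and sgALKBH5 (diamonds), 1 library each. OASL and RSAD2 have widely separated controls, while COL6A1, MAGEA1, FADS2 and GDF15 have controls close together and sgALKBH5 apart from both.

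Among genes of the cell surface, adhesion receptors mostly lay above both controls. Of 27 adhesion receptor genes 18 lay above both and 2 below both. ICAM1, an NF-kB-responsive ligand of leukocyte integrins, was at 4.09 TPM in control 1, 0.172 TPM in control 2 and 31.4 TPM in sgALKBH5. ICAM5 was at 0.601, 0.032 and 3.80 TPM. Both genes lie on chromosome 19. The edgeR log2 fold change of ICAM1 was 3.86 (standard error 1.47). The integrin gene ITGA4 was at 1.72, 2.39 and 5.93 TPM and was 2-fold above both.

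Of 22 collagen genes 16 were measured, and 13 of these lay above both controls, with 1 below both, 3 at 2-fold and medians of 0.45 and 1.3, and -0.55 between the controls. COL6A1 and COL6A2, which encode chains of the collagen VI microfibril and neighbour each other on chromosome 21, were both 2-fold above each control. COL6A1 was at 115 TPM in both controls and 293 TPM in sgALKBH5, a difference of 1.34 from each. COL6A2 was at 132, 158 and 365 TPM. COL6A3, the third chain, was at 371, 142 and 436 TPM, also highest in sgALKBH5 but close to control 1. COL7A1, the anchoring fibril collagen gene, was at 1.51, 0.831 and 4.74 TPM.

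The other matrix lists did not lean one way. Of 27 matrix protein genes 9 lay above both controls and 4 below both, and FN1, for fibronectin, was at 1030, 118 and 745 TPM, between the controls. CSPG4, a proteoglycan gene, was at 9.28 TPM in control 1, 27.6 TPM in control 2 and 0.379 TPM in sgALKBH5, below both. Of 13 metalloproteinase and inhibitor genes 4 lay above and 5 below. MMP9, a gelatinase gene, was at 111, 127 and 453 TPM, and MMP3, for stromelysin, at 15.7, 17.8 and 3.41 TPM. In both the controls lay close together, and sgALKBH5 was apart from them in opposite directions. PLAU, for urokinase, was at 1920, 1533 and 3107 TPM, with differences of 0.69 and 1.02.

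BMP7, a growth factor of the TGF-beta superfamily, had the largest difference from its nearer control, 3.84, among the named genes above both. It was at 0.704 TPM in control 1, 0 in control 2 and 23.5 TPM in sgALKBH5, or 24, 0 and 985 counts. GDF15, a stress-induced member of the same superfamily, was at 1586, 1692 and 374 TPM, more than 2-fold below both controls, which lay 0.09 apart. Of 32 genes of BMP, activin and TGF-beta signalling 12 lay above both and 9 below both.

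Cholesterol synthesis and uptake had the lowest medians of the plotted lists, with 21 of 24 measured genes below, 1 above and medians of -0.48 and -0.85. HMGCS1, which makes the precursor of mevalonate, was at 24.6 TPM in control 1, 27.8 TPM in control 2 and 11.1 TPM in sgALKBH5. MSMO1, a sterol demethylation enzyme gene, was at 47.1, 59.5 and 20.4 TPM. Both were 2-fold below each control. The list's members were also 0.26 higher in control 2 than in control 1 at the median.

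Fatty acid synthesis genes were split, with 6 of 19 above both controls and 6 below both. FADS2, the delta-6 desaturase of polyunsaturated fatty acids, stood out among them at 177 TPM in control 1, 180 TPM in control 2 and 16.3 TPM in sgALKBH5. Its controls were nearly equal, and sgALKBH5 differed from them by -3.36 and -3.39, and its counts were 4863, 5457 and 550. The edgeR log2 fold change was -3.72 (standard error 0.26). FASN, the fatty acid synthase gene, was at 186, 251 and 184 TPM, just below both. Of 20 genes for fatty acid binding, activation and oxidation 5 lay above and 9 below. FABP5, a fatty acid binding protein gene, was at 32.3, 23.6 and 1.14 TPM.

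Of 27 p53 target genes 12 lay below both controls and 3 above both. CDKN1A, the cell cycle inhibitor p21, was at 406, 511 and 349 TPM, lowest in sgALKBH5, with differences of -0.22 and -0.55. TP53I11 was at 12.5, 16.1 and 1.74 TPM, or 288, 121 and 69 counts, so TPM and counts of the controls ranked in opposite order. Its count-based log2 fold change was -2.06 (standard error 0.73).

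Hypoxia and glycolysis genes lay above both controls for 27 of 35 members and below both for 2, but 0 were 2-fold beyond both, and the medians were 0.17 and 0.75. Unfolded protein response genes showed 19 of 25 above and 3 below, with medians of 0.14 and 0.52. In both lists the difference from control 2 was the larger, and the medians between the controls were -0.32 and -0.41. ATF3, a stress-induced transcription factor gene, was at 23.2 TPM in control 1, 12.9 TPM in control 2 and 57.2 TPM in sgALKBH5. DUSP5, a phosphatase gene induced by ERK, was at 351, 676 and 123 TPM, 2-fold below both.

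Translation and respiration genes leaned slightly below both controls. Of 84 cytosolic ribosomal protein genes 42 lay below both and 6 above both, with medians of -0.01 and -0.23. For 78 mitochondrial ribosomal protein genes the numbers were 41 below and 13 above, with medians of -0.09 and -0.09. For 77 nuclear respiratory complex genes they were 42 below and 7 above, with medians of -0.05 and -0.21. Control 2 minus control 1 had medians of 0.24, -0.025 and 0.17 for the lists in this order. For cytosolic ribosomal and respiratory genes that gap was larger in size than the step from control 1 to sgALKBH5. Of these 3 lists, 0 genes were 2-fold beyond both controls.

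Cancer-testis antigen genes, normally limited to germ cells, included some of the steepest differences. Of 54 genes 31 were measured, of which 18 lay above both controls and 6 below both. MAGEA1 was at 15.1 TPM in control 1, 16 TPM in control 2 and 63.2 TPM in sgALKBH5. SSX2 was at 0.232, 0.686 and 21.8 TPM, and SSX2B, a copy with identical values in the table, cannot be told apart from it. ACTL8 was the member 2-fold below both, at 16.8, 479 and 6.95 TPM, with control 2 apart from the rest.

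**Figure D3:**
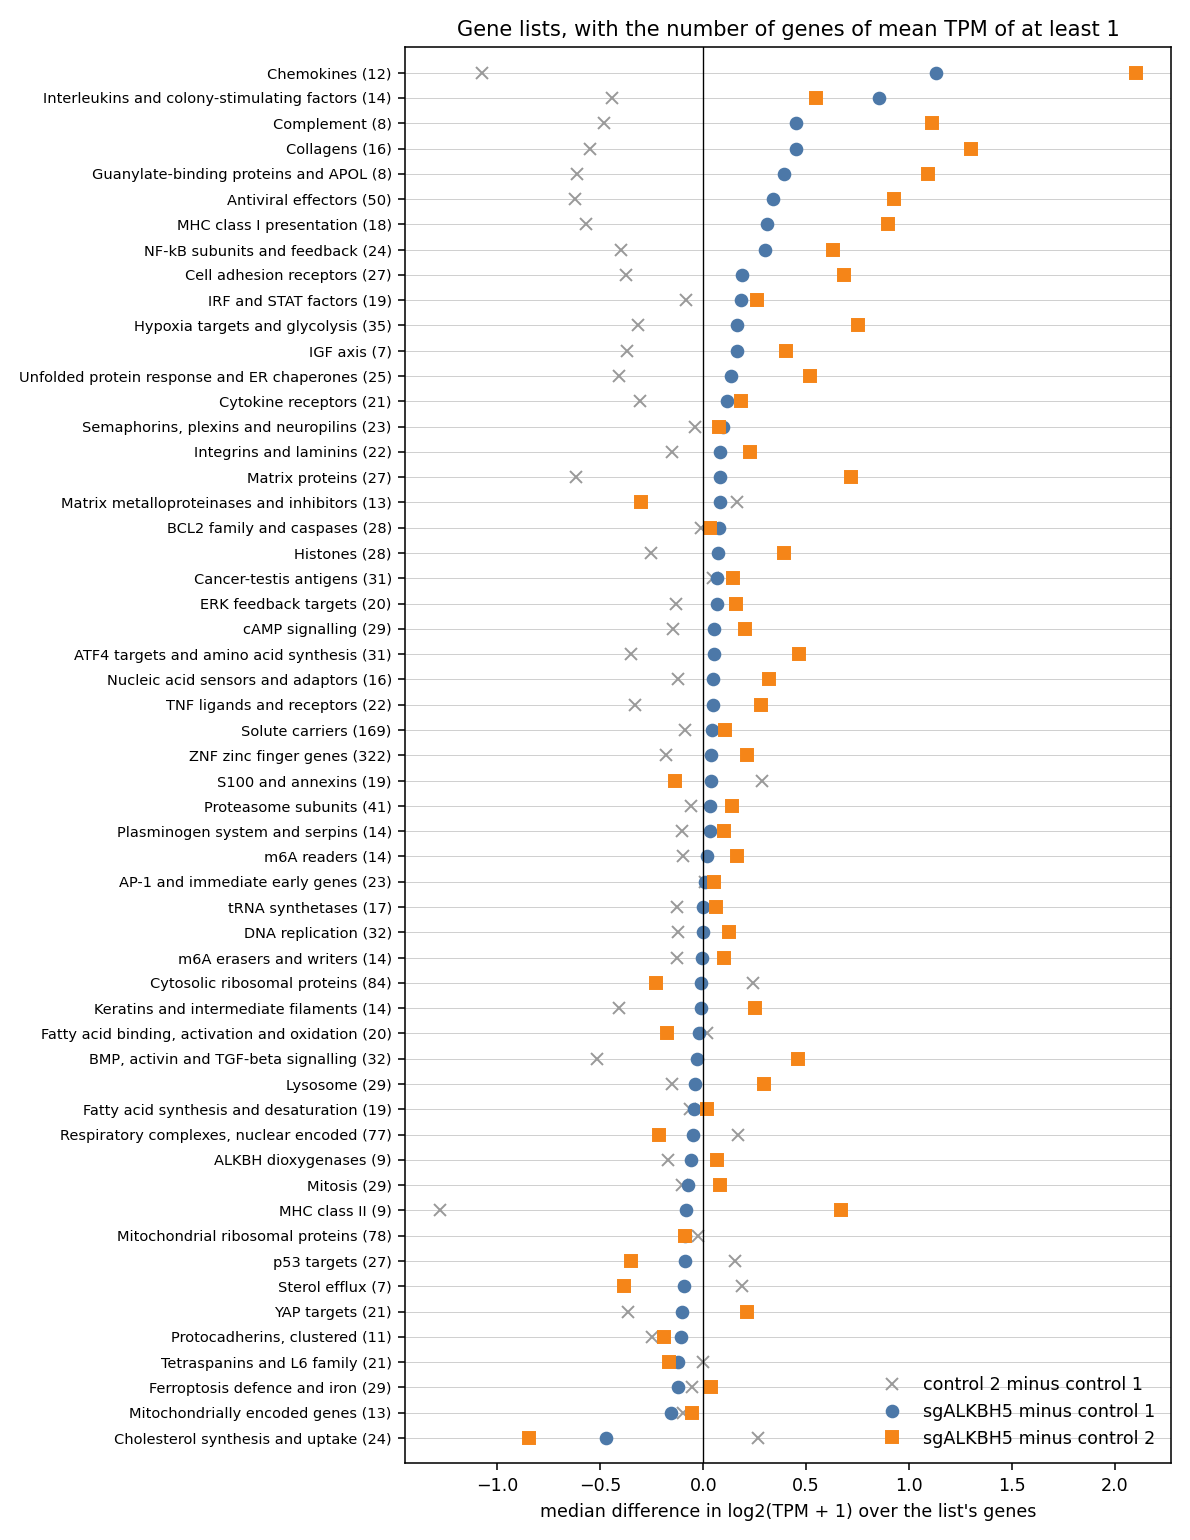
Median difference in log2(TPM + 1) of each gene list with at least 5 measured genes, apart from the marker lists, which are not drawn. Shown are sgALKBH5 minus control 1 (circles), sgALKBH5 minus control 2 (squares) and control 2 minus control 1 (crosses), with the number of genes in parentheses. Chemokines lie farthest to the right at 1.13 and 2.1, cholesterol synthesis farthest to the left at -0.48 and -0.85, and in both the crosses lie on the opposite side of 0.

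Outside the lists, the genes far above both controls had varied roles. TNFRSF8, the receptor CD30, was at 1.16 TPM in control 1, 1.13 TPM in control 2 and 9.60 TPM in sgALKBH5. LAPTM5, a lysosomal membrane protein gene of blood cells, was at 5.44, 7.53 and 33.2 TPM. In both, sgALKBH5 stood more than 2-fold above each control. MGMT, which repairs alkylated guanine in DNA, was at 5.12, 4.78 and 18.9 TPM, and TMEM255B, a membrane protein gene, at 2.31, 0.314 and 22.3 TPM.

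Among the genes far below both, SLC43A3, a purine base transporter gene, was at 130 TPM in control 1, 232 TPM in control 2 and 4.86 TPM in sgALKBH5, or 2908, 5559 and 132 counts. Its difference from the nearer control, -4.49, was the largest among the named genes below both. TMEM98, a transmembrane protein gene, was at 28.2, 25.3 and 4.45 TPM, and HRH2, the histamine H2 receptor gene, at 7.52, 7.99 and 0.837 TPM. SMIM11 was at 17.2, 23 and 0.46 TPM, and TMEM42 at 6.32, 5.20 and 0.15 TPM. GGT1, which breaks down glutathione outside the cell, was at 21.6, 63.5 and 4.07 TPM. SYN3, a synapsin gene, was at 8.13, 13 and 0.921 TPM, and TIMP3, a metalloproteinase inhibitor gene that lies within SYN3 and was named after its values were seen, was at 35.1, 19.6 and 11 TPM. Reads of this pair cannot be told apart without strand.

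Position along the genome separated genes on chromosome 20 more than on any other chromosome. Genes were split at the largest gap between annotated genes of each chromosome, which on chromosome 20 runs from 26249854 to 28580633 in GRCh38.p14. Before the gap, 104 measured genes had median differences of -0.59 from control 1 and -0.52 from control 2, while the controls differed by a median of -0.10. Of these genes 86 (82.7%) lay below both controls and 9 above both, against 27.5% below and 39.1% above over all genes. After the gap, 203 genes had medians of 0.31 and 0.58, with -0.26 between the controls, and 181 (89.2%) lay above both and 7 below both. Among 41 chromosome sides with at least 20 genes, these were the lowest and the highest against each control.

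**Figure D4:**
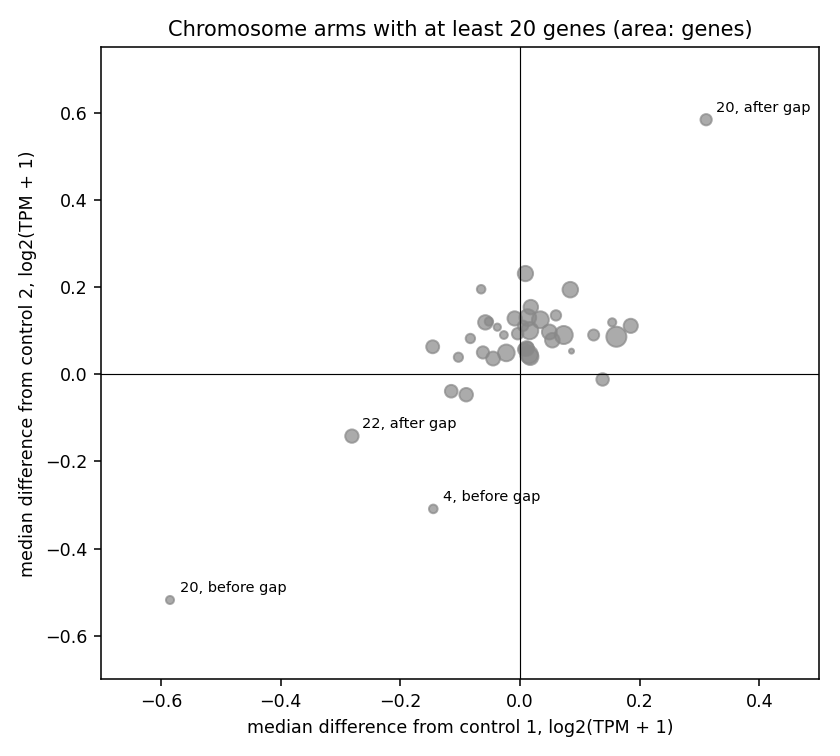
Median difference in log2(TPM + 1) of sgALKBH5 from control 1 (horizontal) and from control 2 (vertical) for 41 chromosome sides with at least 20 genes, with area in proportion to the number of genes. The side of chromosome 20 before the gap lies alone at the lower left (-0.59 and -0.52) and the side after it alone at the upper right (0.31 and 0.58).

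The offset ran along both sides and was not carried by a few genes. Before the gap the quartiles against control 1 were -0.80 and -0.42, and after it 0.21 and 0.47. Of 217 windows of 10 Mb with at least 20 genes, the 3 lowest in the median nearer to 0 were the 3 before the gap, at 0 to 10, 10 to 20 and 20 to 30 Mb, and the 4 highest were the 4 after it. With a mean TPM of at least 20 the medians were -0.61 and -0.65 for 44 genes before the gap and 0.30 and 0.55 for 143 genes after it. In the sgPKA library the same 104 genes had medians of 0.41 and 0.42 against the controls, opposite in sign to sgALKBH5. The 203 genes had a median of -0.30 against control 1, also opposite in sign. Against control 2 their median was -0.01, with 98 genes higher in sgPKA and 104 lower, so they leaned neither way there. The next lowest side against control 1 was on chromosome 22, where 284 genes had medians of -0.28 and -0.14.

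The last measured genes before the gap, GINS1, NANP and ZNF337, lay below both controls. Of the first 3 after it, HM13 and ID1 lay above both, while BCL2L1, an apoptosis inhibitor gene, was at 224, 254 and 201 TPM, below both. ID1, a BMP-induced transcription regulator gene, was at 419 TPM in control 1, 235 TPM in control 2 and 577 TPM in sgALKBH5. UBE2C, a mitotic ubiquitin-conjugating enzyme gene farther along, was at 471, 363 and 670 TPM, also above both. Of 11378 measured symbols with a position, 307 lay on chromosome 20, 203 of them after the gap. Of 119 symbols 2-fold above both controls, 8 lay on chromosome 20, 7 of them after the gap: MMP9, CD40, BMP7, APCDD1L, CDH4, LAMA5 and NTSR1. CD40 was at 0.447, 0.161 and 0.0 TPM in control 1, control 2 and sgPKA, and BMP7 at 0.704, 0.0 and 0.0 TPM. Both reached the mean of 1 TPM only through sgALKBH5, while MMP9, APCDD1L, CDH4 and LAMA5 were above 1 TPM in both controls. The count therefore depended in part on the library being compared and supports nothing about enrichment after the gap. Of 56 symbols 2-fold below both, 3 lay on chromosome 20, all before the gap: FERMT1, PLCB1 and NKX2-4. LAMA5, a laminin chain gene, was at 20.9, 11.4 and 45.9 TPM, and FERMT1, an integrin activator gene, at 8.72, 8.58 and 3.23 TPM. Copy number was not measured, and its part in these values was not tested. Without chromosome 20, an alternative chosen after seeing the data, 112 genes were 2-fold above both controls and 53 below both.

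**Figure D5:**
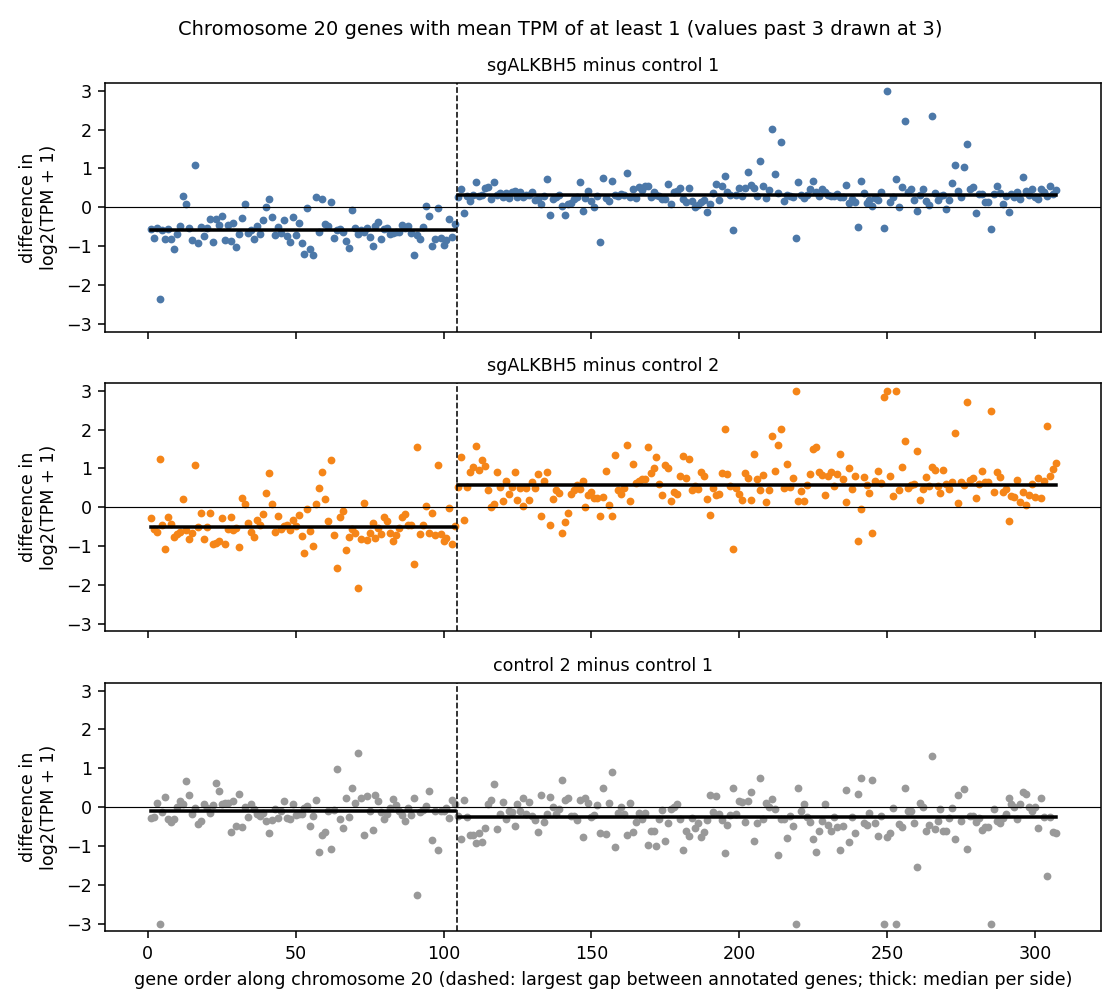
Difference in log2(TPM + 1) of 307 genes in their order along chromosome 20, for sgALKBH5 minus control 1 (top), sgALKBH5 minus control 2 (middle) and control 2 minus control 1 (bottom), with the median of each side as a thick line and values past 3 drawn at 3. In the upper 2 panels the medians step from -0.59 to 0.31 and from -0.52 to 0.58 at the gap, and in the lower panel from -0.10 to -0.26.

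Base composition and length were set beside the differences. Over 5 bins of GC content and 5 of transcript length, for 99.8% of genes with a GENCODE v29 transcript, the median difference from control 1 ran from -0.01 to 0.04 and that from control 2 from -0.01 to 0.19. Control 2 minus control 1 had medians from -0.18 to 0.03 over the same bins.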

How the data were processed

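Polyadenylated RNA of 4 HT-1080 libraries was sequenced. RSEM, StringTie 1.3.1, HISAT2 2.1.0, fastp 0.18.0 and the build GRCh38.p14 were used, per the submitters' processing notes, which give no role for each. Strand use and annotation release are not given in the sources used here. Per the file headers, the single table deposited by the authors holds TPM and expected counts for every gene. Its expected counts are not normalised, and its deposited TPM sum to 1000000 per library.

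Expected counts were rounded and tested in edgeR 4.0.16 (R 4.3.3), with TMM, filterByExpr, 3 groups and 1 residual degree of freedom, so a call compares these libraries. Each standard error is the size of the log2 fold change divided by the square root of the test's F statistic. It holds no spread of sgALKBH5, which was assumed to vary like the controls. The script was tested on simulated data. Alternatives used DESeq2 1.42.0 and limma 3.58.1. Differences of log2(TPM + 1) were computed against each control, with 2-fold as a rule of size. Gene symbols were joined to RefSeq positions for 11378 of 11543 symbols. For a repeated symbol only the entry with the highest mean TPM was kept, and genes of the Y chromosome were left out of lists and positions. Lists were described by medians and counts, with no test. Named genes were the m6A genes and GPX4, the 2 most abundant and up to 5 most distant members 2-fold beyond both controls per list, the 15 most distant others each way, and the 5 most distant with controls within 0.25. Only some of these are described. Members and lists were chosen with earlier results of these data known. Depth ran from 14050867 to 25937347 counts.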

Additional observations from a re-analysis of the deposited data

How the results depend on the processing

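No paired analysis was possible because sgALKBH5 is 1 library with no replicate number. The 120 genes 2-fold above both controls became 60 with a mean TPM of at least 5 and 49 among genes whose controls were within 0.5. The 56 below both became 113 with a pseudocount of 0.1 and 28 among genes whose controls were within 0.5. With 1 control left out, the counts ran from 174 to 717 above and from 127 to 257 below. On log2(CPM + 1), 103 of the 120 and 49 of the 56 remained. The 301 genes 2-fold apart from control 1 became 510 with a pseudocount of 0.1 and 163 with a mean TPM of at least 5. That minimum gave 588 of 974 genes against control 2 and 432 of 745 between the controls. Genes above both were 68.2% of those beyond both, and 60.8% with a pseudocount of 0.1, 60.0% with a mean TPM of at least 5 and 72.9% with no minimum. DESeq2 called 40 genes where edgeR called 0. edgeR called 0 also with DESeq2's size factors, with no filter and with only the 3 libraries, as did limma. A fit without 1 control was not run. Signs were checked for 33 lists with both medians of 1 sign and at least 0.05 in size. Lists with a median nearer to 0 were not checked. The signs held for 33 with a pseudocount of 0.1 and 33 with TMM-rescaled TPM. On log2(CPM + 1) semaphorins reversed to -0.12. The chromosome 20 medians kept their signs under all 3 scalings, from -0.68 to -0.52 before the gap and from 0.29 to 0.61 after it. The causes were not tested. Depth limits low genes most, in control 1 and control 2.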
